A study of Mus musculus with 8 samples.

Results

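The microRNAs (miRNAs) described here are those whose array names begin with miR-297, miR-466, miR-467 or miR-669, families that are known for a large miRNA cluster in an intron of the mouse gene Sfmbt2. They were chosen by name alone, whatever the letter, strand suffix or asterisk that follows, and they number 39 of the 611 mouse miRNAs on the array, which also carries 39 herpesvirus miRNAs. Lung RNA from female C57BL/6 mice (Bom Tac dams) was measured on 8 single-colour Agilent miRNA arrays. All mice had been pregnant when exposed. The 4 vehicle control arrays (Control 1 to Control 4) came from mice given nanopure water into the trachea, and the 4 Printex 90 arrays (Printex 1 to Printex 4) came from mice given Printex 90, a carbon black nanoparticle, in the same vehicle. The dose of 0.067 mg was instilled 4 times (gestational day 7, day 10, day 15 and day 18), for a total of 0.268 mg. Lungs were taken at weaning, 26 to 27 days after exposure. The labels do not say whether each array held a separate animal, so the spread between arrays of a group may be technical.

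A miRNA is cut from a hairpin precursor, and either arm of the hairpin can yield a mature strand, named 5p or 3p. In older names an asterisk marks the strand taken for the less abundant. The mature strand guides Argonaute proteins to messenger RNAs, mainly through the seed, bases 2 to 8. Sfmbt2 encodes a Polycomb group protein, is imprinted and expressed from the paternal copy in early embryos and extraembryonic tissue, and is needed for the trophoblast of the placenta. The miRNA cluster in its intron is a rodent feature that arose by tandem duplication, and its hairpins hold stretches of simple UG and CA repeats. Members have been studied outside the placenta as well. miR-466l has been reported to stabilise interleukin 10 mRNA in macrophages, miR-669a to restrain MyoD in progenitor cells, and miR-467b to target lipoprotein lipase in macrophages.

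In the RefSeq gene table for the mouse, 72 of the 82 miRNA genes of these 4 families lie within Sfmbt2 on chromosome 2, and the other 10 lie on chromosomes 3, 5, 7, 9, 10, 11 and 13. The table gives the span of the gene only, so exons and introns were not told apart. Of the 39 members, 37 were matched to a gene by name. Of these, 29 had copies only within Sfmbt2, 5 had copies only elsewhere (miR-466i, miR-466j, miR-466k, miR-467f and miR-467g), and 3 had copies in both places (miR-297a*, miR-466f-3p and miR-466f-5p). The families named for the cluster are thus measured here together with a few relatives from other chromosomes.

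Only the 5 relatives from elsewhere had a mature sequence in the reference used, and 4 of the 5 were detected. Their sequences are shown, and repeat-like character was read for these 5 members only, not for members with copies within Sfmbt2. They come from RefSeq on GRCm38.p6, are written 5′ to 3′, and have the seed in capitals. The array name miR-466i was matched to the entry miR-466i-3p.
miR-466i: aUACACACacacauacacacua
miR-466j: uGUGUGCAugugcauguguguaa
miR-466k: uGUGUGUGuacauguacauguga
miR-467f: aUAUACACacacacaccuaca
miR-467g: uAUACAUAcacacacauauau
miR-466i lies at chr13:17747552-17747573 on the plus strand, within Cdk13. miR-466j lies at chr10:60960802-60960824 on the plus strand, where the table has no other gene. miR-466k lies at chr3:85467396-85467418 on the plus strand, within Gm31419. miR-467f lies at chr11:69635419-69635439 on the minus strand, within Fxr2. miR-467g lies at chr5:34732872-34732892 on the minus strand, within Grk4. The 5 seeds all differ, so shared names here do not mean a shared seed. miR-466i, miR-467f and miR-467g are CA-rich, and the longest stretch of identical bases was 13 between miR-466i and miR-467f and 11 between miR-467g and either of them. miR-466j and miR-466k are UG-rich and share a stretch of 8 bases.

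The mature strands were searched, as written, for runs of alternating U and G or of alternating C and A, starting with any of these letters. A UG run is the complement of a CA run, and the searches cannot match the same bases. A run of at least 8 bases was found in 4 of the 5 members with a sequence (80%), the exception being miR-466j with 7. The longest runs were 12 bases in miR-467f, 11 in miR-466i, 9 in miR-466k and 9 in miR-467g. The same run was present in 2 of the 201 other array miRNAs with a sequence (0.995%) and in 13 of the 1679 mature miRNAs in the table (0.774%). The other two array miRNAs with such a run are shown because their signals are set beside those of the members further on.
miR-1187: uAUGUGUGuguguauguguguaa
miR-574-5p: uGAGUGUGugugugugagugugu
miR-1187 lies at chr5:82798964-82798986 on the minus strand. miR-574-5p lies at chr5:64970328-64970350 on the plus strand, within Fam114a1 and Tlr6, and its longest run is 13 bases. miR-1187 could pair without a gap with 15 bases of miR-466i, 13 of miR-467f and 13 of miR-467g.

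Most members gave signal above background in adult lung, as did a few herpesvirus miRNAs described further on. Detection on an array required that 1 or more of a miRNA's probes had 50% or more of its spots well above background. By that measure 24 of 39 members (61.5%) were detected on all 8 arrays, beside 240 of all 611 mouse miRNAs (39.3%), and 13 members were detected on none. The miR-466 family had 9 of 14 members on all arrays, the miR-467 family 6 of 10, the miR-669 family 8 of 12 and the miR-297 family 1 of 3. Members undetected on every array numbered 4 in the miR-466 family, 4 in the miR-467 family, 3 in the miR-669 family and 2 in the miR-297 family. Of the relatives from elsewhere 4 of 5 were on all arrays, and of the members with copies only within Sfmbt2 17 of 29 were. Detection thus ran through all 4 families and both kinds of location.

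Among members whose name gives a strand, detection went with that strand. All 8 members named 3p or with an asterisk were detected on all 8 arrays (miR-297a*, miR-466a-3p, miR-466d-3p, miR-466f-3p, miR-467a*, miR-467b*, miR-467e* and miR-669h-3p). Of the 7 members named 5p, miR-466c-5p was detected on all arrays, miR-466f-5p on 4 arrays and the other 5 on none. Of the 24 members without a suffix 15 were detected on all arrays. Their names do not give the arm, so detected 5p strands may be among them. The array holds both strands for 7 precursor names, which allows the arms of a hairpin to be set side by side by detection. In all 7 the 3p or asterisk strand was detected on all 8 arrays. In 6 of the 7 the opposite strand was detected on none, and miR-466f-5p, the exception, was detected on 3 control arrays and 1 Printex 90 array. Agilent's own detection flag gave 28 members on at least 4 arrays, beside 26 by the measure used here. Whether that flag changes these pairs was not examined. For miR-467a, miR-467b and miR-467e only the strand carrying the asterisk, which the old naming takes for the scarcer product, was detected by the measure used here. Probes differ in how strongly they bind, so the signals of the strands were not compared as amounts.

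**Figure D1:**
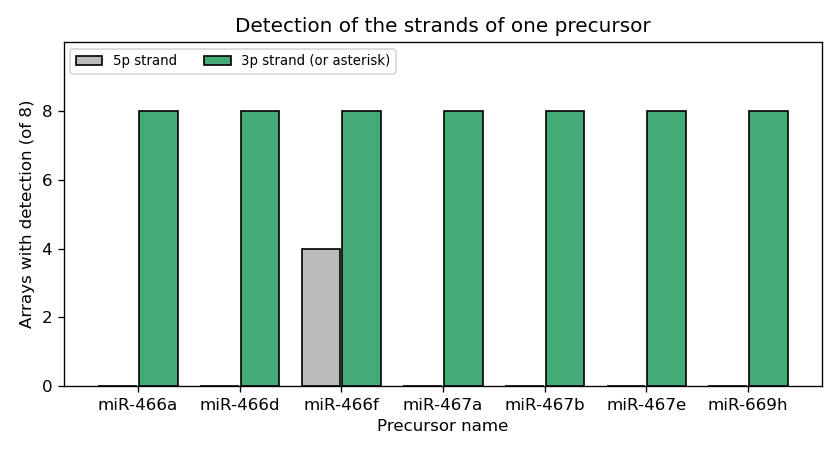
Number of arrays (of 8, vertical axis) on which each strand was detected for the 7 precursor names with both strands on the array, with grey bars for the 5p strand and green bars for the 3p or asterisk strand. The green bars all reach 8, and the only grey bar above 0 is that of miR-466f, at 4.

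Each signal below is divided by a value of its own array, the 75th percentile of the 240 mouse miRNAs that were present on every array, so that this percentile is 1. The lowest values were raised to a floor of 0.0388 before logs were taken. Log2 differences are Printex 90 minus vehicle control, with the standard error (SE) and p-value of limma fitted over the 268 mouse miRNAs that 4 or more arrays detected and adjusted over all of them by Benjamini-Hochberg. Values on every array are given for the 12 members with the highest mean signal and for the 3 with the smallest p, and each is read against its own probes on the other arrays only. In the same order throughout, the values run from array 1 to array 4 of a group.

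The members of the miR-467 family gave a pattern that returned in the other families. miR-467b*, the 3p product of the miR-467b hairpin, measured 0.777, 0.931, 0.982 and 0.729 on the control arrays and 0.832, 0.822, 0.721 and 0.698 on the Printex 90 arrays. Control 2 and Control 3 stood above every Printex 90 array, while Control 1 and Control 4 lay among them, so the groups overlapped. The group means were 0.855 ± 0.121 and 0.768 ± 0.0685 (SD, n = 4 each), with a log2 difference of -0.15 (SE 0.11, limma adjusted p = 0.740). miR-467e* measured 0.644, 0.788, 0.826 and 0.602 on the control arrays and 0.661, 0.681, 0.601 and 0.587 on the Printex 90 arrays. Again Control 2 and Control 3 were the high arrays and the other two controls lay within the Printex 90 range, with a log2 difference of -0.17 (SE 0.11, limma adjusted p = 0.724). miR-467a* measured 0.424, 0.50, 0.522 and 0.391 on the control arrays and 0.466, 0.444, 0.408 and 0.399 on the Printex 90 arrays. Here the controls held both the highest arrays and, in Control 4, the lowest of the 8, and the log2 difference was -0.09 (SE 0.10, limma adjusted p = 0.767). miR-467c, detected on all arrays as well, had a log2 difference of -0.11 (SE 0.10), which was 0.051 with normexp, another background correction.

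The relatives encoded outside Sfmbt2 followed the same arrays. miR-467g, the CA-rich miRNA within Grk4, measured 0.657, 0.780, 0.832 and 0.626 on the control arrays and 0.655, 0.712, 0.612 and 0.596 on the Printex 90 arrays. Control 2 and Control 3 were above all Printex 90 arrays, Control 1 and Control 4 were not, and the log2 difference was -0.16 (SE 0.11, limma adjusted p = 0.706). miR-467f, within Fxr2, measured 0.402, 0.481, 0.507 and 0.375 on the control arrays and 0.440, 0.440, 0.399 and 0.373 on the Printex 90 arrays. The groups overlapped through Control 1 and Control 4, and the log2 difference was -0.09 (SE 0.11, limma adjusted p = 0.768). miR-466i, within Cdk13, measured 0.373, 0.444, 0.484 and 0.357 on the control arrays and 0.411, 0.412, 0.369 and 0.358 on the Printex 90 arrays. Control 3 was its highest array and Control 4 its lowest, and the log2 difference of -0.09 (SE 0.11, limma adjusted p = 0.767) was 0.019 when the authors' deposited table was fitted instead. miR-466j, the UG-rich member of this set, had a log2 difference of -0.25 (SE 0.16) and a 1.78-fold range between its highest and lowest array.

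Within the miR-466 family, miR-466g measured 0.764, 0.910, 0.978 and 0.704 on the control arrays and 0.807, 0.818, 0.748 and 0.711 on the Printex 90 arrays. The Printex 90 arrays lay inside the control range, and the log2 difference of -0.11 (SE 0.11, limma adjusted p = 0.767) was 0.0083 after quantile normalization. miR-466f-3p, which has gene copies both within Sfmbt2 and elsewhere, measured 0.767, 0.900, 0.950 and 0.716 on the control arrays and 0.850, 0.825, 0.750 and 0.700 on the Printex 90 arrays. Control 2 and Control 3 were again highest. Its log2 difference of -0.09 (SE 0.11) was 0.031 after quantile normalization and 0.0058 with the authors' deposited table, so its direction was not settled. miR-466d-3p measured 0.353, 0.406, 0.432 and 0.333 on the control arrays and 0.323, 0.381, 0.314 and 0.309 on the Printex 90 arrays. Printex 2 was the only Printex 90 array above Control 1 and Control 4, and the log2 difference was -0.20 (SE 0.10, unadjusted p = 0.101 and adjusted p = 0.706 in limma).

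miR-466h, which has been linked to apoptosis in cultured mouse cells, had the smallest p of the members in this fit. It measured 0.282, 0.316, 0.334 and 0.268 on the control arrays and 0.299, 0.270, 0.228 and 0.253 on the Printex 90 arrays. Printex 3 and Printex 4 lay below all controls, whereas Printex 1 and Printex 2 lay among them. Its means were 0.300 ± 0.0302 and 0.262 ± 0.0298 (SD, n = 4 each). The log2 difference was -0.19 (SE 0.10, 95% interval -0.44 to 0.05), with an unadjusted p of 0.0997 and an adjusted p of 0.706 in limma. miR-466l, the member reported to act on interleukin 10 mRNA, had a log2 difference of -0.26 (SE 0.15, limma adjusted p = 0.706), which was -0.14 without Control 3. miR-466a-3p and miR-466c-5p had log2 differences of -0.19 (SE 0.13) and -0.12 (SE 0.11). The sign for miR-466c-5p turned to 0.020 with normexp.

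The only miR-297 member detected was miR-297a*. It measured 0.496, 0.616, 0.653 and 0.490 on the control arrays and 0.512, 0.531, 0.479 and 0.457 on the Printex 90 arrays. Control 2 and Control 3 were the highest arrays and the groups overlapped through the remaining controls. The log2 difference was -0.18 (SE 0.11, 95% interval -0.44 to 0.08, limma adjusted p = 0.706).

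In the miR-669 family, miR-669a, studied as a brake on MyoD, measured 0.185, 0.208, 0.224 and 0.178 on the control arrays and 0.188, 0.193, 0.157 and 0.161 on the Printex 90 arrays. Printex 3 and Printex 4 were below all controls and Printex 1 and Printex 2 were not. The log2 difference was -0.18 (SE 0.10, unadjusted p = 0.110 and adjusted p = 0.706 in limma). miR-669h-3p measured 0.373, 0.444, 0.472 and 0.349 on the control arrays and 0.395, 0.404, 0.355 and 0.342 on the Printex 90 arrays, and its log2 difference was -0.12 (SE 0.11). The high arrays were Control 2 and Control 3, as for the members above. miR-669f measured 0.386, 0.445, 0.464 and 0.359 on the control arrays and 0.408, 0.420, 0.372 and 0.359 on the Printex 90 arrays. Its log2 difference of -0.08 (SE 0.10) was close to 0 and turned positive both with normexp (0.0039) and with the authors' deposited table (0.0060). The remaining members of the family were tested with log2 differences of -0.21 for miR-669i, -0.21 for miR-669d, -0.15 for miR-669b, -0.14 for miR-669e and -0.08 for miR-669c. The value for miR-669b was 0.039 with normexp, and that for miR-669c was 0.013 after quantile normalization and 0.0015 with normexp.

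miR-669j and miR-466f-5p were detected on some arrays only. miR-669j was detected on 4 control arrays and 1 Printex 90 array, but it lay under the floor on 7 of the 8 arrays, and its log2 difference of -0.02 is bounded by that floor. That value was -0.30 with the floor lowered to 0.5 of its height and -0.32 with the files' total gene signal, with limma adjusted p of 0.778 and 0.650. miR-466f-5p was under the floor on all 8 arrays, so its log2 difference of 0 carries no information on direction.

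**Figure D2:**
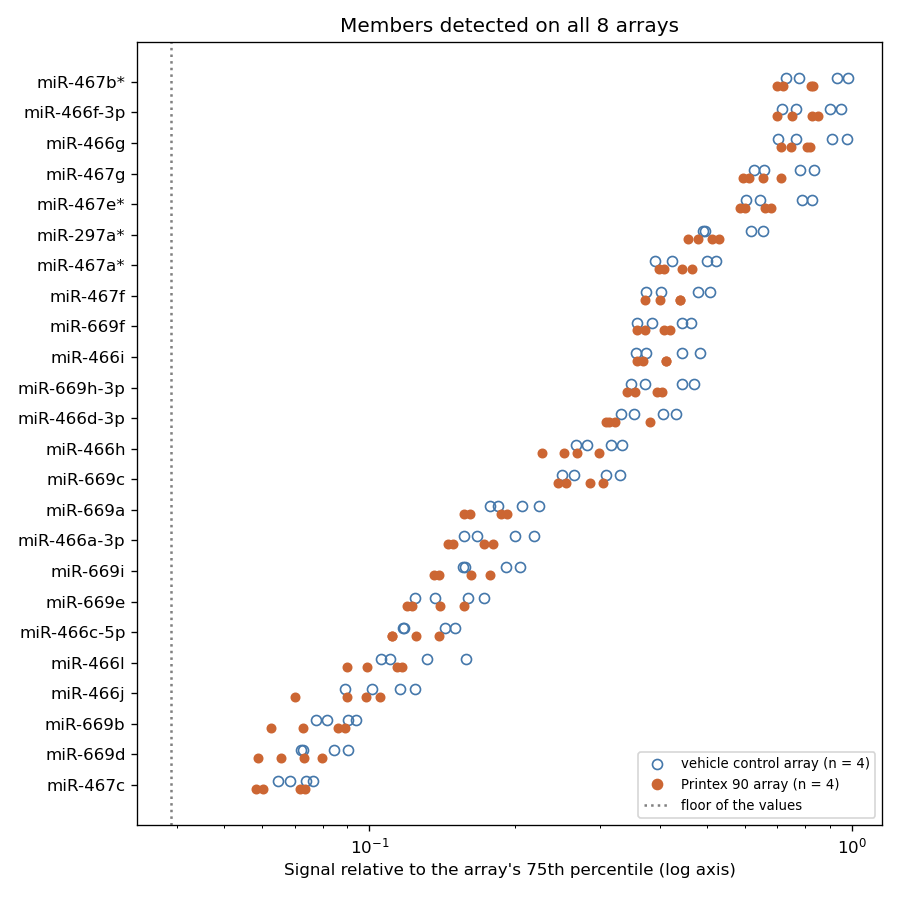
Signal of the 24 members detected on all 8 arrays relative to the array's 75th percentile (log horizontal axis), with open blue circles for the 4 vehicle control arrays and filled orange circles for the 4 Printex 90 arrays. Each line is one miRNA and is to be read along itself, since probes differ in brightness; in every line the highest circle is a control array, and the groups overlap.

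Over the families, no member passed the test. Of the 26 members tested 0 had an adjusted p under 0.05 in limma, beside 0% of the 268 mouse miRNAs tested. In either direction 0 members had an unadjusted p under 0.05 in limma, beside 15 of the 268. The share of the 268 with such a p in the lower direction alone was 2.61%. In none of the 26 did all Printex 90 arrays lie below all controls, a separation seen in 0.373% of the tested miRNAs. The mean of the floored log2 values was lower in the Printex 90 group for 25 of 26 members, beside 65.7% of the tested miRNAs. The 25 include miR-669j, under the floor on 7 of the 8 arrays. For miR-466f-5p, under the floor on all 8, the difference was 0. However, 3 members were higher after quantile normalization, 7 with normexp and 4 with the authors' deposited table. The counts for normexp and the authors' deposited table include miR-466f-5p, at 0.083 and 0.0080. The median log2 difference of the members was -0.14, beside -0.05 over all tested miRNAs and -0.04 over those that are no members. By family, the median log2 difference was -0.18 for the miR-297 member, -0.16 for miR-466, -0.13 for miR-467 and -0.14 for miR-669, and no family's median was above 0 under any alternative. Members are not independent observations of the treatment, and the lists were chosen with earlier results known, so these counts describe the families and test nothing.

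The median rested in part on Control 3. Without that array it was -0.07 for the members and -0.04 for all tested miRNAs. For the 24 members detected on all arrays the log2 differences ran from -0.26 for miR-466l to -0.08 for miR-669c, and adjusted p ran from 0.706 to 0.785 in limma. The 95% intervals of all 26 members held 0, and they reached to either side by a median of 0.26 on the log2 scale, or 1.20-fold. Across the 24, the interval bounds ran from 0.652 to 1.14 times the control level. The 4 arrays per group limit this precision. Of the tested members 21 had at least 2 probes above background on all arrays, and in 0 of the 21 did the probes differ in sign.

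**Figure D3:**
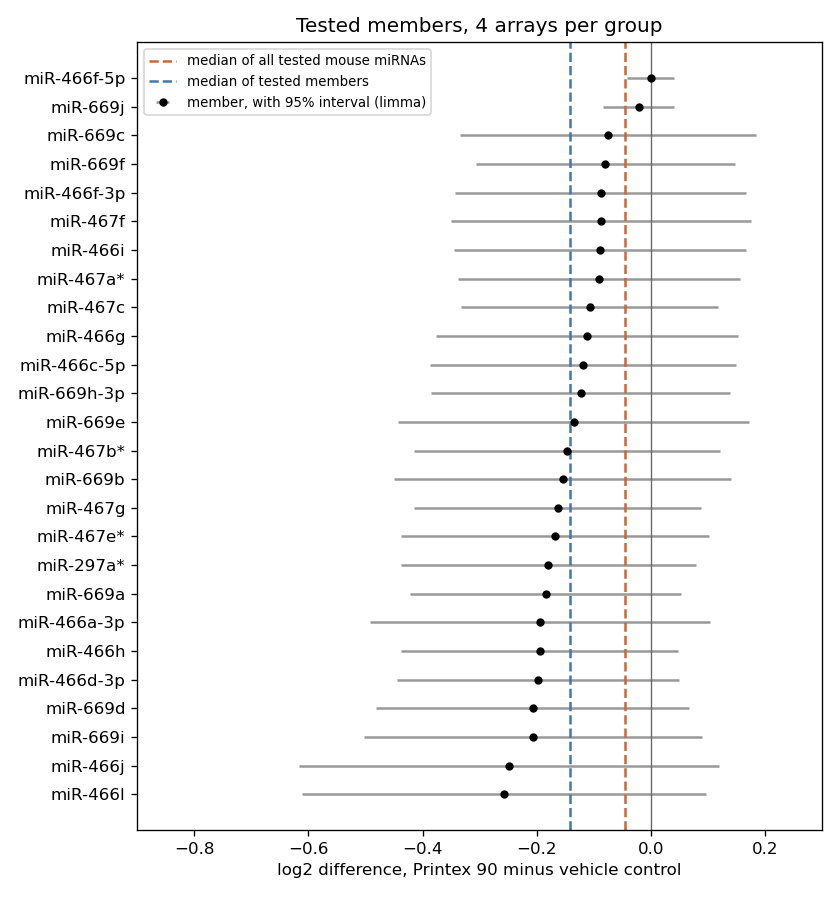
Log2 difference, Printex 90 minus vehicle control (horizontal axis), of the 26 tested members, with dots for the limma estimate and grey lines for its 95% interval (4 arrays per group). All intervals hold 0, and the members' median of -0.14 (blue dashed line) lies below the -0.05 of all tested mouse miRNAs (orange dashed line); 3 members, miR-466f-3p, miR-466g and miR-669c, are above 0 after quantile normalization.

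The pattern over single arrays was closer than the comparison of groups. In all 24 members detected on every array, Control 3 was the highest of the 8 arrays, beside 27.1% of the 240 mouse miRNAs so detected. Control 2 and Control 3 were the highest 2 arrays in 24 of 24 members, beside 52 of the 240 (21.7%). The lowest array was Printex 4 in 11 members, Printex 3 in 9 and Control 4 in 4, and Printex 3 or Printex 4 was lowest in 34.2% of the 240. As a mean log2 deviation from each member's own average, the 24 members stood at -0.05, 0.19, 0.28 and -0.12 on the control arrays and at 0.03, 0.06, -0.20 and -0.19 on the Printex 90 arrays. The controls thus held both high and low arrays, and the Printex 90 group held 2 low arrays and, in Printex 1 and Printex 2, arrays near the average. The ratio of the highest to the lowest array had a median of 1.40 over the 24 members (1.29 to 1.78), and a median of 1.28 over the other 216 miRNAs.

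The 24 members moved together from array to array. Over the 8 arrays, which all pairs share along with their scaling, Pearson's r between log2 signals had a median of 0.93 over the 276 pairs of members and a lowest value of 0.70. The median over pairs of the other 216 miRNAs was 0.14. Each member was also set against the mean of the other 23. The closest was miR-466a-3p (r = 0.995) and the least close miR-669b (r = 0.850). The relatives from outside Sfmbt2 had r of 0.964 (miR-466i), 0.901 (miR-466j), 0.952 (miR-467f) and 0.975 (miR-467g), and so lay within the range of the members from the cluster. Whether a probe also bound RNA of other members was not tested.

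**Figure D4:**
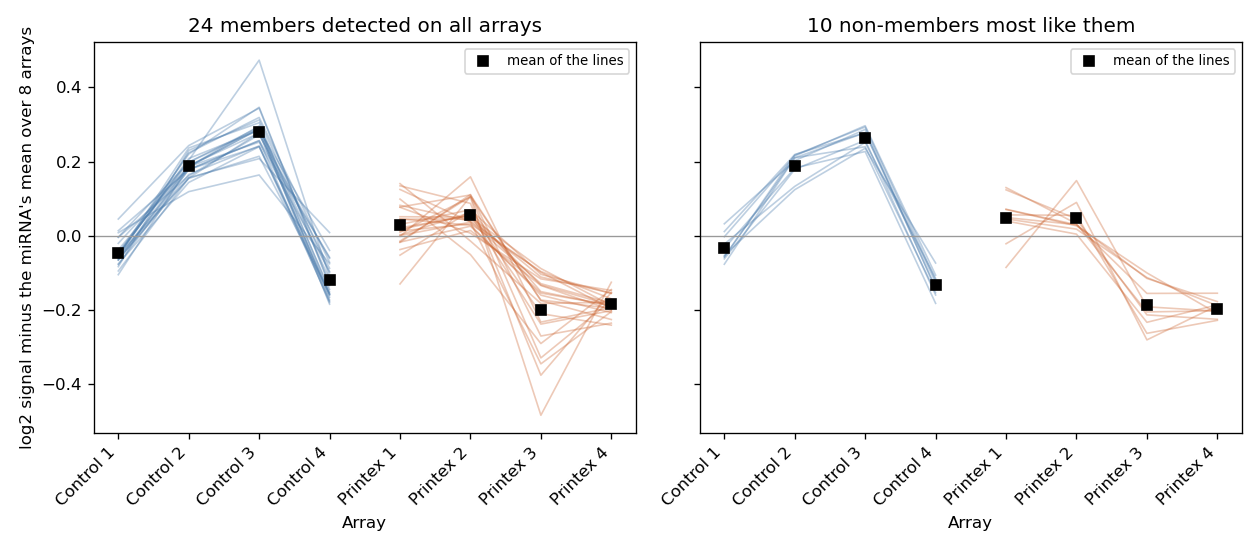
Log2 signal minus the miRNA's own mean over the 8 arrays (vertical axis) for each array (horizontal axis), with a line for each miRNA in blue over control arrays and orange over Printex 90 arrays, and black squares for the mean of the lines. The left panel has the 24 members detected on all arrays. The right panel has the 10 other miRNAs most like them, which were chosen for that likeness. In both panels Control 2 and Control 3 are highest and Printex 3 and Printex 4 lie below 0.

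The scaling shaped part of this pattern. Before scaling, the array's 75th percentile was 692.6, 635.2, 628.4 and 804.7 intensity units on the control arrays and 629.1, 720.6, 580.8 and 694.5 on the Printex 90 arrays. Control 4 thus had the brightest percentile, and Control 3 the dimmest among controls. Without scaling, the mean log2 deviation of the 24 members was 0.00, 0.11, 0.19 and 0.14 on the control arrays and -0.06, 0.16, -0.41 and -0.13 on the Printex 90 arrays. Control 4 moved from the low side to the high side, whereas Control 3 remained high and Printex 3 remained low. Control 3 was then the highest array in 15 members, Control 4 in 5 and Printex 2 in 4, while Control 4 was highest in 56.3% of the 240 miRNAs. Printex 3 was the lowest array in 24 of 24 members, beside 43.8% of the 240. The median r between members was 0.96 without scaling, beside 0.55 between the other miRNAs. Member signals were therefore close to each other on either scale, and the order of the arrays was not the same on both.

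**Figure D5:**
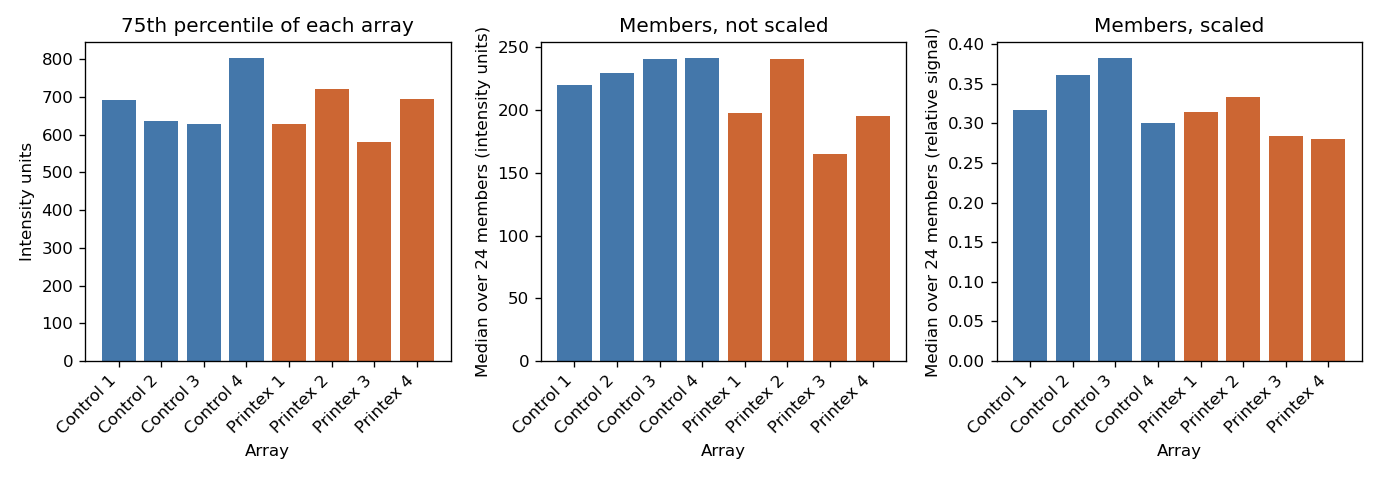
Bars by array (blue for vehicle control, orange for Printex 90, all axes from 0) for the 75th percentile before scaling, the median signal of the 24 members before scaling and the same median after scaling. Control 4 has the highest percentile, 804.7 intensity units, and its member median moves from among the highest of the controls before scaling to the lowest of the controls after it.

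Some miRNAs outside the families had the same array profile. Among the 216 others detected on all arrays, 23 (10.6%) had an r with the mean of the members at or above that of the least close member, and 19 (8.80%) did so without scaling. The median r of the 216 was 0.05. The 10 most alike were miR-328 (r = 0.991), miR-1196 (r = 0.985), miR-1894-5p, miR-207, miR-764-5p, miR-1187 (r = 0.970), let-7d*, miR-877*, miR-574-5p (r = 0.961) and miR-468 (r = 0.956), ranked by that correlation over 8 arrays. All 10 were highest on Control 3, as the members' mean was. They were chosen for likeness to that mean, so this array and the sign of their differences follow largely from the choice. Their log2 differences ran from -0.20 to -0.10, and none passed the test.

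The other 2 array miRNAs with a UG run, printed above, were both among these 10. The rest of the 10, among them miR-328 with the highest r, held no such run or had no sequence to search. A sequence was at hand for 201 of the 572 mouse miRNAs that are no members. Whether the run bears on the array profile was not tested. miR-1187 measured 0.263, 0.316, 0.322 and 0.245 on the control arrays and 0.282, 0.276, 0.252 and 0.239 on the Printex 90 arrays. miR-574-5p, from the Fam114a1 gene, measured 0.307, 0.357, 0.368 and 0.277 on the control arrays and 0.331, 0.321, 0.291 and 0.278 on the Printex 90 arrays. In both, Control 2 and Control 3 were the highest arrays, as in the 24 members. Among the 4 members with a run of at least 8 bases, only miR-466k has a UG run, and the rest have CA runs. miR-466k was detected on no array, so the sequence feature was not always accompanied by signal.

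Markers of cell types were set beside the members, by their summed relative signal. The lung samples held signal for all endothelial (2 of 2), epithelial (5 of 5), smooth muscle (4 of 4), leukocyte (4 of 4) and erythroid (3 of 3) marker miRNAs on all arrays. The epithelial sum, from miR-141, miR-429 and the miR-200 family, ran from 7.32 to 8.17 on control arrays and from 7.65 to 9.14 on Printex 90 arrays. The leukocyte sum ran from 6.68 to 8.61 and from 7.02 to 8.45, the endothelial sum from 37.3 to 43.0 and from 34.4 to 42.3, and the smooth muscle sum from 6.32 to 6.73 and from 5.84 to 7.17. The ranges of the groups overlapped in each of these lists. The erythroid sum was highest on Control 1, at 46.9, and lay between 19.7 and 30.6 on the other 7 arrays. The striated muscle sum was highest on Printex 1, at 3.05, followed by Control 2 at 1.91 and Control 3 at 1.70. It lay under 1 on the other arrays, and 3 of its 4 markers were detected on all arrays. By marker, the log2 difference was negative for 4 of 4 striated muscle miRNAs (median -0.74) and 3 of 3 erythroid miRNAs (-0.25). These medians were below 0 under every alternative, but without Control 1 the erythroid median was -0.03, with 1 of 3 miRNAs higher. The log2 difference was negative for 2 of 2 endothelial miRNAs (-0.15), with a median of 0.07 for the authors' deposited table. For 5 of 5 epithelial miRNAs it was positive (0.06), with a median of -0.01 without scaling. It was negative for 4 of 4 smooth muscle miRNAs and 3 of 4 leukocyte miRNAs (-0.04 each), whose medians were above 0 with a percentile over all mouse miRNAs, with normexp and with the authors' deposited table. None of these markers had an adjusted p under 0.05 or an unadjusted p under 0.05 in limma. The part of these cell types in the member signals was not tested. In whole lung RNA, fewer cells of a type and less RNA per cell cannot be told apart.

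Embryonic stem cells are a known site of expression of the Sfmbt2 cluster, so miRNAs typical of those cells were also counted. The list held the names miR-290, miR-291a, miR-292, miR-294, miR-295 and miR-302, with any ending. Of these 17 miRNAs, 15 were detected on no array and miR-302c on 1. miR-294 was detected on all 8 arrays, at 0.204, 0.220, 0.250 and 0.178 on the control arrays and 0.205, 0.205, 0.141 and 0.169 on the Printex 90 arrays. It was highest on Control 3, like the members, and its log2 difference was -0.25 in limma (adjusted p = 0.706). Most of these 17 miRNAs were undetected on every array, as were 318 of all 611 mouse miRNAs. The cells from which the member signals came were not tested.

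The imprinted Dlk1-Dio3 cluster on another chromosome, also a large miRNA cluster active in placenta and embryo, gave a different count. Of its 75 miRNA names on the array 9 were detected on all arrays and 12 were tested. Their log2 differences were positive for 6, negative for 5 and 0 for 1, with a median of 0.01, and 0 were past the adjusted p of 0.05 in limma. No test compared the clusters.

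Herpesvirus probes give a level for miRNAs that mouse lung should lack. Of the 39 virus miRNAs, 3 were detected on all 8 arrays and mghv-miR-M1-6 on 1. mghv-miR-M1-2 measured 0.232, 0.257, 0.265 and 0.209 on the control arrays and 0.270, 0.262, 0.229 and 0.204 on the Printex 90 arrays. Its correlation with the mean of the members over the 8 arrays was 0.80, and that of mghv-miR-M1-6 was 0.94. The values for mcmv-miR-M23-1-5p and mcmv-miR-m88-1 were 0.01 and 0.19. Detection by the array's flags therefore also occurred for probes of other organisms, on control and Printex 90 arrays alike. The mean of mghv-miR-M1-2 was 0.241 in each group. Members detected on all arrays lay on both sides of it by mean signal. Below it were miR-466a-3p, miR-466c-5p, miR-466j, miR-466l, miR-467c, miR-669a, miR-669b, miR-669d, miR-669e and miR-669i, from 0.0684 (miR-467c) to 0.187 (miR-669a). The other members detected on all arrays were above it, from miR-669c (0.281) to miR-467b* (0.811). Probes differ in how strongly they bind, so this level gives no cut-off for single members.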

How the data were processed

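Mouse lung RNA was measured on 8 Agilent arrays labelled with Cy3 (4 per group). Per the labels' protocols, a miRvana kit was used to isolate total RNA with small RNA. Per the file headers, Agilent Feature Extraction 10.7.3.1 (grid design 021828) gave the intensity of each spot, background-subtracted within each array and not normalized between arrays. The authors' deposited log2 value table has column medians of 5.41 to 5.43. It matched the recomputed quantile-normalized median log2 spot signals (r = 1.00 on every array). The steps behind it are unknown (not given in the sources used here), and it served as an alternative only.

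Control spots and outlier spots (2.25% to 2.76% per array) were left out, spots of a probe averaged, and the probes of a miRNA (106 over the members, 1 to 4 each) summed. No spot was saturated. Signals were divided by the array's 75th percentile (240 mouse miRNAs), floored at 0.0388 (the 5th percentile of detected signals) and log2-transformed. Fold differences near the floor are understated. Mouse miRNAs detected by 4 or more arrays (268) were tested 2-sided with limma 3.58.1 (R 4.3.3, lmFit and eBayes), after a check on simulated data. Of the tables' value columns, 0 were left unmapped.

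The members, the lists and the sequence search were chosen with earlier results of these data known, and the selection rule uses names only. By rule, every tested member is named with its difference, and values by array are given for the 12 members of highest mean signal and the 3 of smallest p. The 10 most alike miRNAs, miR-294 and the counts by array were named after their values were seen. Other miRNAs were named for a repeat run of at least 8 bases, and virus miRNAs as background. Per the file headers, the control arrays sat in 1 row of a slide and the Printex 90 arrays in the other, so row and treatment cannot be told apart. Without stated separate animals, p-values measure the spread between these arrays. The 23 alternatives changed the scaling, background, summary, detection filter, floor, source table, variance model or arrays used. The normexp alternative used the median spot signal, where the mean had been planned.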

Additional observations from a re-analysis of the deposited data

How the results depend on the processing

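Over the 23 alternatives 0 members passed an adjusted p of 0.05 in limma, with a lowest member adjusted p between 0.224 and 0.914 and 0 to 3 members at an unadjusted p under 0.05. The median log2 difference of the members stayed negative, from -0.21 without scaling to -0.01 with normexp background correction. The median of all tested miRNAs ran from -0.12 to 0.04 (0.036 with normexp, against -0.05), and the members' median lay below it by 0.03 to 0.15. Leaving out each array in turn gave -0.21 to -0.07 for the members' median (lowest without Control 4, highest without Control 3), 0 to 3 calls over all miRNAs (3 without Printex 3) and 25 to 26 members detected on at least 4 arrays. The files' own detection flag gave 28.

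Single members changed sign, none with a call, and the cause was not tested. After quantile normalization the log2 difference was 0.031 for miR-466f-3p, 0.0083 for miR-466g and 0.013 for miR-669c. With normexp it was 0.020 for miR-466c-5p, 0.051 for miR-467c, 0.039 for miR-669b, 0.0015 for miR-669c, 0.0039 for miR-669f and 0.0020 for miR-669j. In the authors' deposited table it was 0.0058 for miR-466f-3p, 0.019 for miR-466i and 0.0060 for miR-669f. Of the 5 members with a sequence, all encoded outside Sfmbt2, a repeat run was held by 5 (100%) at 6 bases and by 2 (40%) at 10, beside 4.98% and 0.995% of the 201 other miRNAs.

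The deviations of same-numbered arrays had correlations of -0.13, -0.38, -0.47 and 0.44 over 268 miRNAs, in the order of the array numbers. The signs were mixed, and so few values cannot decide whether the numbers pair the arrays. A fit with the replicate number as a block gave 0 calls and a members' median of -0.14. Member signals near the floor, as for miR-669j, limit what can be measured.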
